A study of Mus musculus with 6 samples.

Results

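Lysosome genes were measured in CT26 cells, a mouse colon carcinoma line from the BALBc strain, to ask whether the rise of Cd68 in 1 line resistant to immune checkpoint blockade (ICB) belonged to a wider lysosomal change. The 41 genes were taken from a written list built around Cd68, and all 41 matched 1 symbol each among the 53801 genes of the tables. RNA-seq libraries came in 3 groups of 2, from the parental line and from the resistant lines B04 and B64. The parental line was bulk CT26 carrying DNA barcodes and recovered from an established tumour, and B04 and B64 were each 1 clone grown from a single barcoded cell of such a tumour. All 3 lines shared the barcode vector and puromycin selection and were grown in RPMI medium, and the labels list no treatment of the cultures. The study describes the clones as isolated after ICB treatment, so the history of a clone and its origin cannot be told apart. The barcodes of both clones had been enriched by anti-PD1 and by anti-CTLA4. GEO's titles call the samples tumours, whereas the methods describe RNA from cultured lines in duplicate. Each clone stands for itself only, and duplicates of 1 line measure the spread between samples, which may be technical.

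The lysosome is the acidic compartment in which the cell breaks down proteins, glycans and lipids that arrive by endocytosis, phagocytosis or autophagy. A proton pump, the V-ATPase, acidifies it, heavily glycosylated membrane proteins such as Lamp1 and Lamp2 line it, and cathepsins, glycosidases and lipid hydrolases work inside it. The transcription factors Tfeb and Tfe3 bind a short palindromic motif in the promoters of many of these genes and are held in the cytoplasm by mTORC1 when nutrients are ample. Cd68 is a glycoprotein of late endosomes and lysosomes, related to the Lamp proteins, and is used in tissue as a macrophage marker.

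Depth was similar in all libraries, with totals from 19409204 to 23472012 expected counts. Fragment length, estimated as gene length minus RSEM's effective length, was longer in both parental libraries and B04 replicate A (271.8 to 277.3 bases) than in B04 replicate B and both B64 libraries (220.8 to 246.2 bases). Line B64 and the parental line therefore also differ in fragment length, and the 2 cannot be told apart in that comparison. Line B04 has 1 library of each kind. The colon epithelial markers Epcam, Cdh1 and Vil1 had at most 2 counts in any library, so the labelled carcinoma type was not borne out by them. Krt8 stayed at or below 16 counts and Krt19 at or below 2, and Cdx2 had 35 and 24 counts in the parental line and 0 in both clones. Krt18 and Krt20 were present and rose in B64 along with the lysosome genes (log2 0.73, SE 0.16, and 1.40, SE 0.14; adjusted p = 1.57e-04 and 5.11e-20 by DESeq2), and their part in the results was not tested.

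Cd68 (ENSMUSG00000018774, chromosome 11, 69664213 to 69666153, minus strand, mm10) had normalised counts of 188 and 170 in the parental line, 187 and 170 in B04, and 729 and 646 in B64. The B64 libraries stood apart, and those of the parental line and B04 overlapped. In TPM, a level scaled for gene length, Cd68 was at 10.7 and 10.1, 12.0 and 10.1, and 39.6 and 36.1 in the same order. The log2 fold change was 1.94 with a standard error (SE) of 0.17 in B64 against the parental line, a 3.84-fold difference, and −0.00 (SE 0.18) in B04. Cd68 prompted the list, so these values describe it and no test is given. Among the 9878 genes with a mean normalised count of at least 100, 21 had a log2 fold change in B64 at least as large, Cd68 included. By mean TPM Cd68 was 30th of the 41 genes in the parental line and in B04 and 21st in B64. Over all libraries Ctsl (2710 TPM), Cd63 (858 TPM) and Lamp1 (313 TPM) led the list.

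The rise of Cd68 did not stand alone, but it stood out in size. Without Cd68, 14 of the 35 other lysosome genes tested rose in B64 and 0 fell, against 8.87% of all genes tested that rose and 7.45% that fell (DESeq2, adjusted p under 0.05; 16.3% in either direction). RNA came from bulk cultures, so a change in the share of cells with high levels and a change in RNA per cell cannot be told apart. No fall was seen at an unadjusted p under 0.05 either (0 of 35), nor by edgeR or limma (0 of 34 each). Over these 35 genes the median log2 fold change was 0.21, and over all genes it was −0.00. For the 14 risen genes the median was 0.42, a 1.33-fold difference, and values ranged from 0.21 for Gaa to 0.77 for Grn. Both B64 libraries lay above all 4 others for 22 of the 35 genes, against 16.8% of all genes, and both lay below for 0, against 16.1%.

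In B04 the direction was the opposite. Of 36 lysosome genes tested, 11 fell and 2 rose, against 12.9% of all genes that fell and 11.2% that rose (24.1% in either direction). The median log2 fold change was −0.08, so most genes moved little. Both B04 libraries lay below all 4 others for 19 of 36 genes, against 20.9% of all genes, and above for 2, against 20.3%. Cd68 was not among those that fell. When the 2 clones were compared directly, 22 of 36 lysosome genes were higher in B64 and 2 were lower, with a median of 0.44, against 13.1% and 11.1% of all genes (24.3% in either direction). Without Cd68 the count was 21 higher of 35. The comparisons with the parental line share its 2 libraries, so they are not independent of each other.

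**Figure D1:**
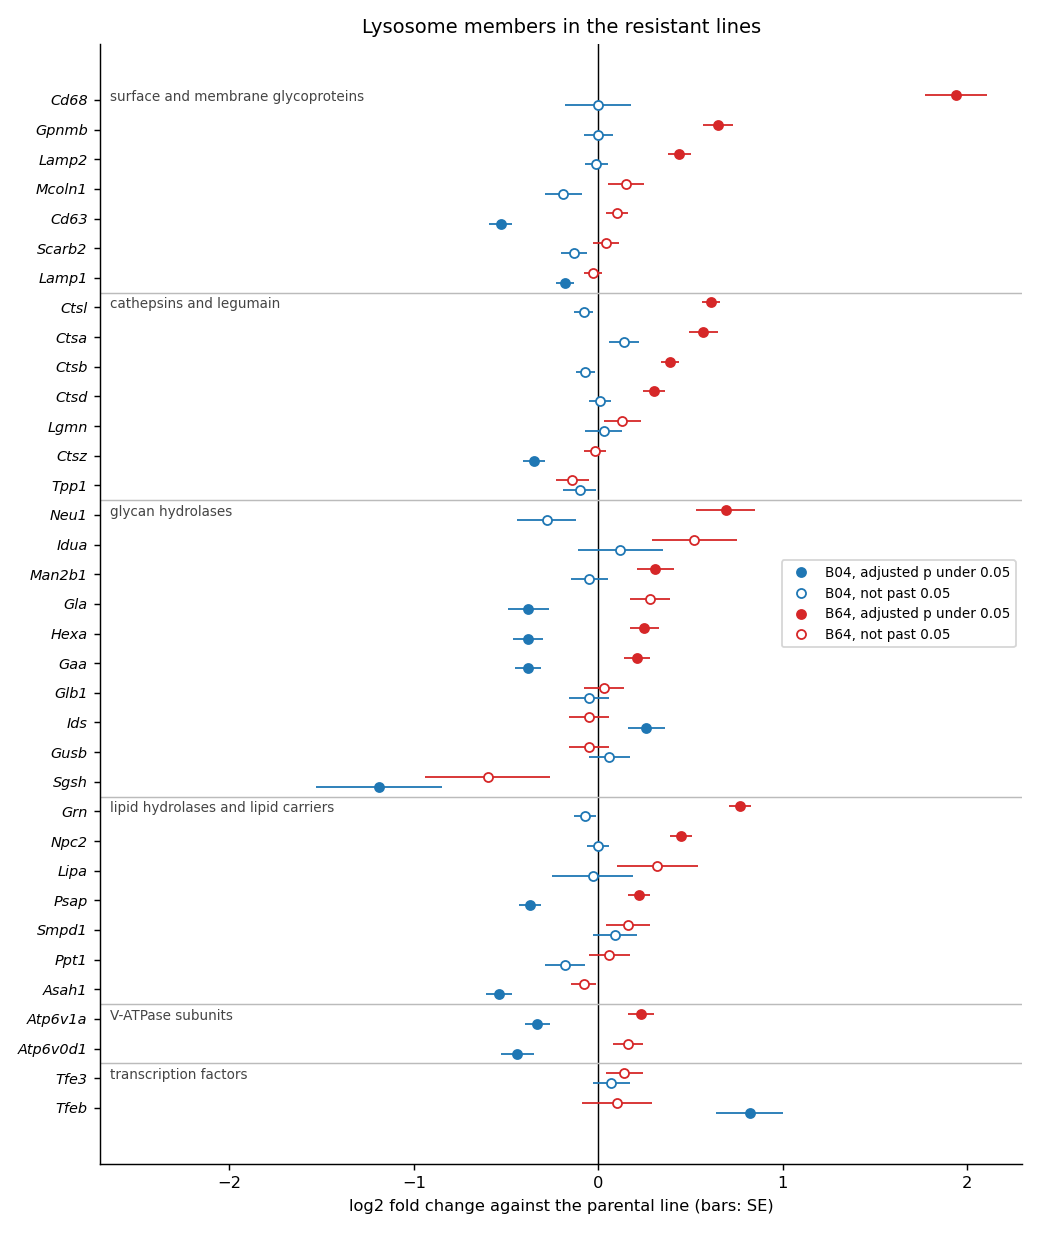
Log2 fold change against the parental line (horizontal axis) with its SE (bars) for the lysosome genes tested, grouped by role, in line B04 (blue) and line B64 (red); filled points passed an adjusted p of 0.05 in DESeq2. Ctsk is left out because of its low counts. Cd68 lies at 1.94 in B64, apart from the next gene, Grn, at 0.77, and the filled points of B04 lie below 0 except Tfeb and Ids.

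With the fragment-length class as a term in the model, 7 lysosome genes other than Cd68 were called higher in B64, namely Lamp2, Gpnmb, Ctsa, Ctsb, Ctsl, Npc2 and Grn, against 1.82% of all genes in that fit. The term rests on the difference between B04 replicates A and B alone, because all parental libraries had long fragments and all B64 libraries short ones. The median log2 fold change over all lysosome genes tested was 0.22 with and without this term, while the median SE over the genes other than Cd68 was 0.17 with it and 0.08 without. Leaving out B64 replicate A gave 8 risen genes other than Cd68, the same 7 and Ctsd, against 4.66% of all genes. In B04, 8 genes were lower and 1 was higher with the fragment-length term, against 6.79% and 5.99% of all genes. Within 1 class, without a test, B04 replicate A was lower than the long-fragment parental libraries for 23 of 36 genes (median −0.08). Of all genes 49.9% were lower in that comparison (median 0.00). The B64 libraries were higher than B04 replicate B, of short fragments too, for 32 of 36 (median 0.43), against 49.8% of all genes (median −0.00). Between these libraries Cd68 differed by 2.01.

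As a share of all counts, the 41 genes made up 0.813% and 0.806% in the parental line, 0.741% and 0.744% in B04, and 1.07% and 1.03% in B64. Ctsl alone carried a large part of this sum. Without Ctsl the shares were 0.523% and 0.52%, 0.468% and 0.462%, and 0.628% and 0.605%. The order B04, parental, B64 held in both sums, with no overlap between groups.

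Counts by role are read against the shares of all genes, of which 8.87% rose and 7.45% fell in B64, and 11.2% rose and 12.9% fell in B04. Of the 7 surface and membrane glycoproteins, Cd68 prompted the list and is not counted here. Of the others, Gpnmb and Lamp2 rose in B64, and Cd63 and Lamp1 fell in B04. Gpnmb, a transmembrane glycoprotein of melanosomes and lysosomes, had 3913 and 3767 normalised counts in the parental line, 4091 and 3564 in B04, and 6329 and 5689 in B64. It was 1.56-fold higher in B64 (log2 0.65, SE 0.08, adjusted p = 1.49e-14 by DESeq2), with B04 overlapping the parental line. Lamp2, which lines the lysosome and takes part in chaperone-mediated autophagy, was at 4820 and 4626, 4734 and 4652, and 6285 and 6556, a log2 fold change of 0.44 (SE 0.06) in B64. Its relative Lamp1 did not rise with it: 12277 and 12583 in the parental line, 11269 and 10701 in B04, and 12232 and 12155 in B64 gave −0.03 (SE 0.05) in B64 and −0.18 (SE 0.05) in B04.

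Cd63, a tetraspanin of late endosomes and exosomes, was the clearest fall of this group in B04. Its counts were 14147 and 14702 in the parental line, 9831 and 10166 in B04, and 16180 and 14736 in B64. The B04 libraries were lower without overlap (log2 −0.53, SE 0.06, adjusted p = 2.46e-17 by DESeq2), and the value in B64 was 0.10 (SE 0.06). Mcoln1, the lysosomal calcium channel, differed between the clones alone (0.35 higher in B64, SE 0.10), a call lost without B04 replicate A or without B64 replicate A (adjusted p of 0.107 to 0.136). Scarb2, the receptor that carries glucocerebrosidase to the lysosome, passed the test in none of the comparisons. The Lamp1 call in B04 was lost without parental replicate B or B04 replicate B (adjusted p of 0.0793 to 0.161).

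Of 12 cathepsins and related proteases, which do most of the protein breakdown in the lysosome, 8 were tested, and 4 rose in B64 while 1 fell in B04. The share that fell in B04 (12.5%) was near the 12.9% of all genes. Ctsl, an endopeptidase and the most abundant of the 41 genes, had 62656 and 62609 normalised counts in the parental line, 58050 and 60212 in B04, and 98053 and 92830 in B64. It was 1.52-fold higher in B64 (log2 0.61, SE 0.05, adjusted p = 1.11e-33 by DESeq2) and in B04 the difference of −0.08 did not pass (adjusted p = 0.229). Ctsa, the carboxypeptidase that also protects Neu1 and beta-galactosidase in a complex, was at 1948 and 1955, 2135 and 2159, and 3006 and 2773. All B64 values lay above the rest, for a log2 fold change of 0.57 (SE 0.08, adjusted p = 1.04e-11).

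Ctsb and Ctsd, the best known cysteine and aspartic cathepsins, rose by 0.39 (SE 0.05) and 0.30 (SE 0.06) in B64. Ctsz, a carboxypeptidase, fell by 0.35 in B04 (SE 0.06) and was at −0.02 in B64 (SE 0.06). Lgmn, an asparagine-specific protease that processes cathepsins, and Tpp1, a tripeptidyl peptidase, passed in no comparison. Ctsb shares 774 exonic bases with Fdft1 on the other strand, and where strand is not known such reads cannot be assigned with certainty.

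Several cathepsins, among them those best known from leukocytes and osteoclasts, were near 0. Ctsc, Ctsf, Ctsh and Ctss had at most 3 counts in any library and were not tested, and neither was Atp6v0d2, a V-ATPase subunit of osteoclasts and macrophages, listed at 0 throughout. Ctsk, the collagenase of osteoclasts, had 6 and 5 normalised counts in the parental line, 1 and 2 in B04, and 10 and 7 in B64, too few for a fold change, and it passed in no comparison. The genes that rose in B64 had mean levels in the parental line from 7.36 TPM (Neu1) to 2210 TPM (Ctsl).

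**Figure D2:**
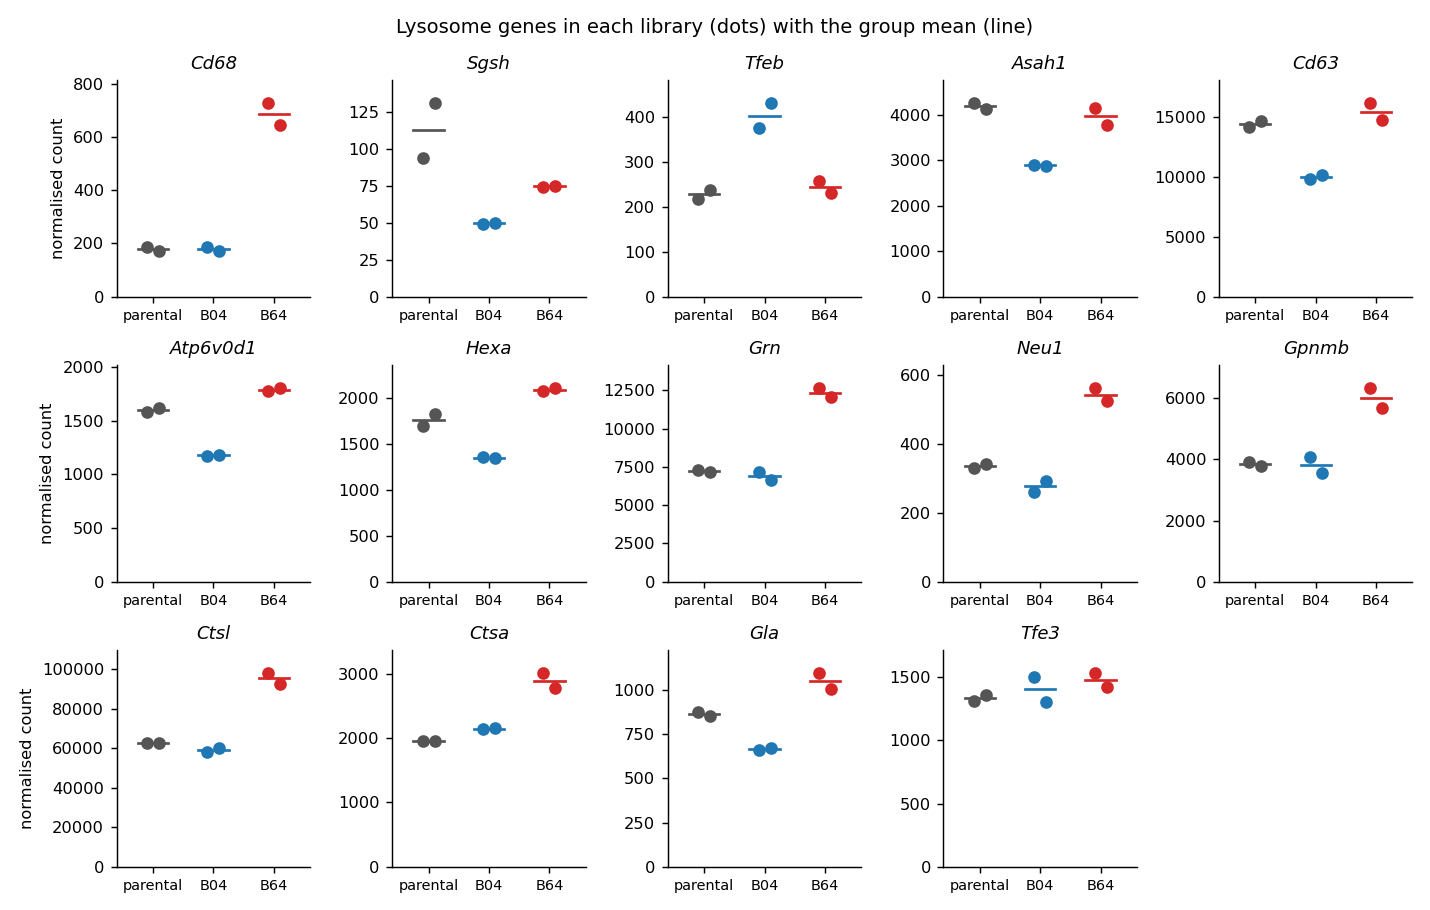
Normalised counts (vertical axes, each starting at 0) in each library of the parental line, B04 and B64 for Cd68, for the lysosome genes with the largest called changes in each comparison, and for Tfeb and Tfe3; dots are libraries and lines are group means of 2. Both B64 libraries of Cd68 (729 and 646) are far above the others, and Cd63, Asah1 and Atp6v0d1 are lowest in B04.

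Of the 10 glycan hydrolases, 4 rose in B64 (Neu1, Man2b1, Hexa and Gaa), and 4 fell in B04 (Sgsh, Gla, Hexa and Gaa) while Ids rose. The share that rose in B04 (10%) was near the 11.2% of all genes. Neu1, the lysosomal sialidase, had 329 and 341 normalised counts in the parental line, 261 and 291 in B04, and 561 and 523 in B64. It was 1.62-fold higher in B64 than in the parental line (log2 0.69, SE 0.16, adjusted p = 0.00015 by DESeq2), a call lost without B64 replicate A (adjusted p = 0.053), and higher than in B04 by 0.97 on the log2 scale (SE 0.16). Hexa, the alpha subunit of beta-hexosaminidase that degrades GM2 ganglioside, was at 1696 and 1824, 1353 and 1347, and 2075 and 2109. Its B04 libraries were the lowest and its B64 libraries the highest, with log2 fold changes of −0.38 (SE 0.08) and 0.25 (SE 0.08).

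Gla, the alpha-galactosidase that is deficient in Fabry disease, followed the same order, with 875 and 850 normalised counts in the parental line, 659 and 669 in B04, and 1094 and 1007 in B64. It was 1.58-fold higher in B64 than in B04 (log2 0.66, SE 0.11, adjusted p = 4.11e-08 by DESeq2). Against the parental line the fall in B04 passed (−0.38, SE 0.11) and the value in B64 did not (0.28, SE 0.11, adjusted p = 0.0528). The call in B04 was lost without parental replicate A, B04 replicate A or B04 replicate B (adjusted p of 0.0653 to 0.10).

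Sgsh, the sulfamidase of heparan sulfate breakdown, had the largest called fall in B04. Its counts were low and the parental libraries differed: 94 and 131 in the parental line, 49 and 50 in B04, and 74 and 75 in B64. The log2 fold change in B04 was −1.19 (SE 0.34, adjusted p = 0.00378 by DESeq2), and −0.93 without parental replicate B, when it no longer passed (adjusted p = 0.197). The call was also lost without either B04 library (adjusted p of 0.0681 to 0.0759). Ids, which removes sulfate from heparan and dermatan sulfate, rose by 0.26 in B04 (SE 0.10), a call lost without any 1 of the 6 libraries (adjusted p of 0.105 to 0.431). The Hexa and Gaa calls in B64 were likewise lost without any 1 library (adjusted p of 0.051 to 0.367 for Hexa, 0.0524 to 0.507 for Gaa), and that of Man2b1 without either library of B64 or of the parental line (0.132 to 0.276). Glb1, Gusb and Idua passed in no comparison.

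Among the 7 genes listed as lipid hydrolases and lipid carriers, Grn, Npc2 and Psap rose in B64, and Psap and Asah1 fell in B04. Grn was counted with them without being either. Grn encodes progranulin, from which the granulins are made in the lysosome. It had 7296 and 7171 normalised counts in the parental line, 7146 and 6670 in B04, and 12657 and 12080 in B64. It was 1.71-fold higher in B64 (log2 0.77, SE 0.06, adjusted p = 6.34e-38 by DESeq2), the largest change after Cd68. Psap, the precursor of the saposins that help sphingolipid hydrolases, was at 10840 and 11205, 8369 and 8639, and 13243 and 12500. Its groups did not overlap, with −0.37 (SE 0.06) in B04 and 0.22 (SE 0.06) in B64, of which the second was lost without B64 replicate A (adjusted p = 0.125).

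Asah1, the acid ceramidase, was lower in B04 only, with 4259 and 4135 normalised counts in the parental line, 2902 and 2869 in B04, and 4149 and 3782 in B64 (log2 −0.54 in B04, SE 0.07, adjusted p = 4.81e-13 by DESeq2). Its value in B64 was −0.08 (SE 0.07). Npc2, which hands cholesterol to Npc1 for export, was higher in B64 by 0.45 (SE 0.06) and at 0.00 in B04 (SE 0.06). Smpd1, Lipa and Ppt1, an acid sphingomyelinase, an acid lipase and a thioesterase, passed in no comparison. Ppt1 shares 129 exonic bases with Cap1, an abundant gene on the other strand.

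The proton pump was lower in B04 over most of its subunits. Atp6v0d1, a subunit of the membrane sector, had 1581 and 1618 normalised counts in the parental line, 1174 and 1185 in B04, and 1777 and 1804 in B64. It fell by 0.44 on the log2 scale in B04 (SE 0.09, adjusted p = 4.79e-06 by DESeq2) and was at 0.16 (SE 0.08) in B64, which did not pass. Atp6v1a, the catalytic subunit, fell by 0.33 in B04 (SE 0.07) and rose by 0.23 in B64 (SE 0.07), the rise being lost without either library of B64 or of the parental line (adjusted p of 0.0572 to 0.27). The list was widened to 17 V-ATPase subunits and accessory proteins, of which 16 were tested.

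Of these 16, 11 fell in B04 and 0 rose, with a median log2 fold change of −0.32, against 12.9% and 11.2% of all genes (0 rises also at an unadjusted p under 0.05 and by edgeR and limma). The fall was largest for Atp6v1h, the regulatory subunit (−0.75, SE 0.09), and followed by Atp6v1b2 (−0.52, SE 0.06). The count was 11 with the fragment-length term, against 6.79% of all genes in that fit, and 7 with limma on TPM, against 5.69%. Falls also outnumbered rises whichever single library was left out. In B64, 7 rose and 1 fell, against 8.87% and 7.45% of all genes, with a median of 0.14, and Atp6ap2, an accessory protein of the pump, rose most (0.45, SE 0.07). That count was less stable: with the fragment-length term 1 rose, against 1.82% of all genes in that fit. It was also lower when any 1 library was left out, most so without parental replicate A or B64 replicate A. With limma on log2(TPM + 1) 3 rose, against 7.65% of all genes in that fit. Against each other, 12 of 16 were higher in B64 than in B04 and 0 were lower, against 13.1% and 11.1% of all genes, with a median of 0.53, and 12 were higher with the fragment-length term too (0 lower also at an unadjusted p under 0.05 and by edgeR and limma). Of all counts, the subunits took 0.204% and 0.207% in the parental line, 0.169% and 0.171% in B04, and 0.227% and 0.219% in B64.

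**Figure D3:**
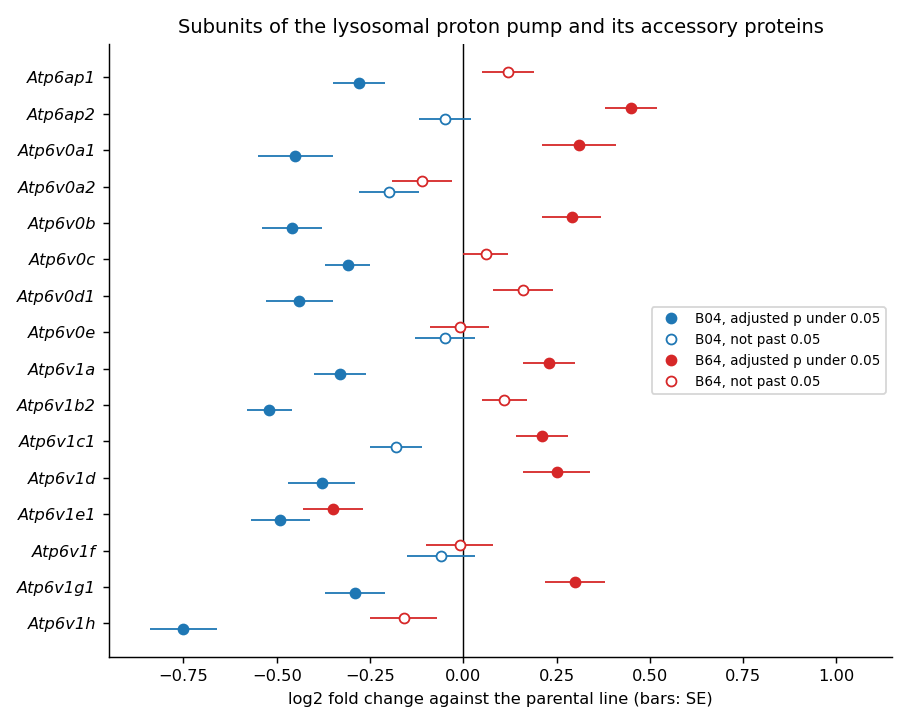
Log2 fold change against the parental line (horizontal axis) with its SE (bars) for 16 subunits and accessory proteins of the V-ATPase in line B04 (blue) and line B64 (red); filled points passed an adjusted p of 0.05 in DESeq2. All 16 values of B04 lie below 0, down to −0.75 for Atp6v1h, and those of B64 range from −0.35 for Atp6v1e1 to 0.45 for Atp6ap2.

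Of the 2 transcription factors, Tfeb rose in B04 and Tfe3 passed in no comparison. Tfeb had 217 and 238 normalised counts in the parental line, 375 and 431 in B04, and 257 and 231 in B64. It was 1.77-fold higher in B04 (log2 0.82, SE 0.18, adjusted p = 6.39e-05 by DESeq2) and lower in B64 than in B04 (−0.72, SE 0.18). The latter call was lost without B04 replicate B or B64 replicate B (adjusted p of 0.0631 to 0.0783). Tfe3 was at 1315 and 1361, 1504 and 1308, and 1532 and 1422, with B04 overlapping both other lines. These are mRNA levels, and both factors are known to be controlled largely by where the protein is held in the cell, which was not measured.

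Promoters were read because Tfeb and Tfe3 act through the motif TCACGTG, which holds the general E-box CACGTG within it. RefSeq windows of 250 bases before to 50 after the gene start (GRCm38.p6) were found for 37 of the 41 genes, and both motifs were searched on both strands. There were 32851 windows for 27025 genes, and a gene counted as matched if any of its windows held the motif. Genes with several windows therefore had more chances of a match. TCACGTG was present for 11 of the 37 genes (29.7%), against 4.29% of 27025 genes with a window and 7% of the 9560 that were tested here. It was present for 4 of the 14 genes with a window that rose in B64 (Atp6v1a, Ctsa, Ctsd and Gaa) for 6 of the 10 that fell in B04 (Atp6v0d1, Atp6v1a, Gaa, Gla, Lamp1 and Sgsh), and for 3 of the 12 that were tested and called in neither (25%, against 28.6% of those that rose in B64). The shorter CACGTG was present for 13 of 37, against 8.09% of genes with a window.

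The windows of Cd68 and Grn, the largest rises in B64, held no match. A window of Ctsa, which rose in B64, and that of Atp6v0d1, which fell in B04, did. The Ctsa window was chosen because it held a match, and it begins past the annotated gene start (164832873). All 4 are shown from 250 bases before to 30 after the start, 5′ to 3′ on the gene's own strand. Capitals mark TCACGTG on either strand; where matches on both strands overlap, they form TCACGTGA. A match is a stretch of letters and not a measured binding site, and no match says only that the letters are missing from this window.
Cd68 (chr11:69666141-69666420, minus strand): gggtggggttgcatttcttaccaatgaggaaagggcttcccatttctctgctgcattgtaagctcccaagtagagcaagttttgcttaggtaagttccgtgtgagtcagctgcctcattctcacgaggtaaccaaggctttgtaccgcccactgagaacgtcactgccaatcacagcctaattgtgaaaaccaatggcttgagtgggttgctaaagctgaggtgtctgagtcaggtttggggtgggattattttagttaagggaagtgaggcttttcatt
Grn (chr11:102430257-102430536, plus strand): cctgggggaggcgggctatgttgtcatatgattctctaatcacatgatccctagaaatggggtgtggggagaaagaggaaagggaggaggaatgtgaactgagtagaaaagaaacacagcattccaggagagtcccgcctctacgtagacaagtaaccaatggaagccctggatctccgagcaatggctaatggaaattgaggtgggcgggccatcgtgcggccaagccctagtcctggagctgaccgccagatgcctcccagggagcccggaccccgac
Ctsa (chr2:164833523-164833802, plus strand): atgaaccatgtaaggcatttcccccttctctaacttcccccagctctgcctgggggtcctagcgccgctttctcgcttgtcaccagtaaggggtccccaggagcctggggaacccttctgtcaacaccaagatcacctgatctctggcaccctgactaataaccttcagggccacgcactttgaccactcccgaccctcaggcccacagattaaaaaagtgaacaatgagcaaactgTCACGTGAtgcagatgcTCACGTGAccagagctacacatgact
Atp6v0d1 (chr8:105566035-105566314, minus strand): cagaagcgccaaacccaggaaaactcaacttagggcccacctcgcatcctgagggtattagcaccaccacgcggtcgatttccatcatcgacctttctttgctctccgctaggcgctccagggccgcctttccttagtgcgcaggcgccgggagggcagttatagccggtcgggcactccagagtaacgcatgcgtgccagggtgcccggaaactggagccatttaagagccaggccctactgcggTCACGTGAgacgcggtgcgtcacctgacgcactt

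Beyond the list, 90 further genes of the pathway were counted, of which 85 were tested. In B64, 19 rose (22.4%) and 7 fell (8.24%), of which the falls were near the 7.45% of all genes and the rises above their 8.87%. In B04, 1 rose (1.18%) and 28 fell (32.9%), against 11.2% and 12.9% of all genes. The B64 count was lower with the fragment-length term, where 3 rose and 2 fell, against 1.82% and 0.825% of all genes in that fit. It was also lower when any 1 library was left out. Without B64 replicate A, which leaves 1 library in B64, both shares were near those of all genes. In B04, 20 fell and 1 rose with the fragment-length term, against 6.79% and 5.99% of all genes. Against each other, 37 were higher in B64 than in B04 and 4 were lower, against 13.1% and 11.1% of all genes. With the fragment-length term 25 were higher and 2 lower, against 7.92% and 5.47% of all genes in that fit. The count was also lower when any 1 library was left out, most so without B04 replicate A or B64 replicate A.

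The lists that follow are read against the same shares of all genes, 8.87% higher and 7.45% lower in B64, and 11.2% higher and 12.9% lower in B04. Of 20 other hydrolases, 6 rose and 3 fell in B64, and 5 fell and 0 rose in B04 (1 rise at an unadjusted p under 0.05, 2 by edgeR and 1 by limma). Arsa, the arylsulfatase that degrades sulfatide, rose in B64 (0.42, SE 0.08), and Scpep1, a serine carboxypeptidase, rose in B64 (0.22, SE 0.05) and fell in B04 (−0.22, SE 0.05). Arsb, Hgsnat and Acp2 fell in B64. Of 15 other membrane proteins, 1 rose and 1 fell in B64 (6.67% each, below the shares of all genes), and 1 rose and 5 fell in B04 (33.3% lower). Npc1, the cholesterol exporter that works with Npc2, was that rise in B64 (0.38, SE 0.09) and fell in B04 (−0.40, SE 0.09). Laptm4b, a transmembrane protein of late endosomes, fell in both clones (−1.17, SE 0.14 in B04; −0.86, SE 0.14 in B64).

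Of 9 sorting receptors and mannose-6-phosphate makers, 2 fell in B64 and 1 in B04, and the latter share (11.1%) was below the 12.9% of all genes. Igf2r, the large mannose-6-phosphate receptor that brings new hydrolases to the lysosome, fell in both clones, with log2 fold changes of −2.39 (SE 0.15) in B04 and −2.22 (SE 0.15) in B64 (adjusted p = 6.71e-52 and 1.17e-44 by DESeq2). M6pr, the small receptor of the same kind, fell in B64 (−0.39, SE 0.07). None of the 9 rose in either clone by DESeq2 (0 at an unadjusted p under 0.05; 1 in B04 by edgeR and by limma). Of 13 genes of the mTORC1 platform and other regulators tested, 1 rose in B64 (7.69%), Fnip2 (0.42, SE 0.12), and 5 fell in B04 (38.5%), led by Rraga (−0.43, SE 0.09), a GTPase that recruits mTORC1. Of 14 autophagy genes, 5 rose in B64 (35.7%) and 3 fell in B04 (21.4%). Gabarapl1, of the Atg8 family that coats autophagosomes, rose by 0.62 (SE 0.08) in B64, and Sqstm1, the cargo receptor p62, by 0.47 (SE 0.05), with −0.17 (SE 0.05) in B04.

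**Figure D4:**
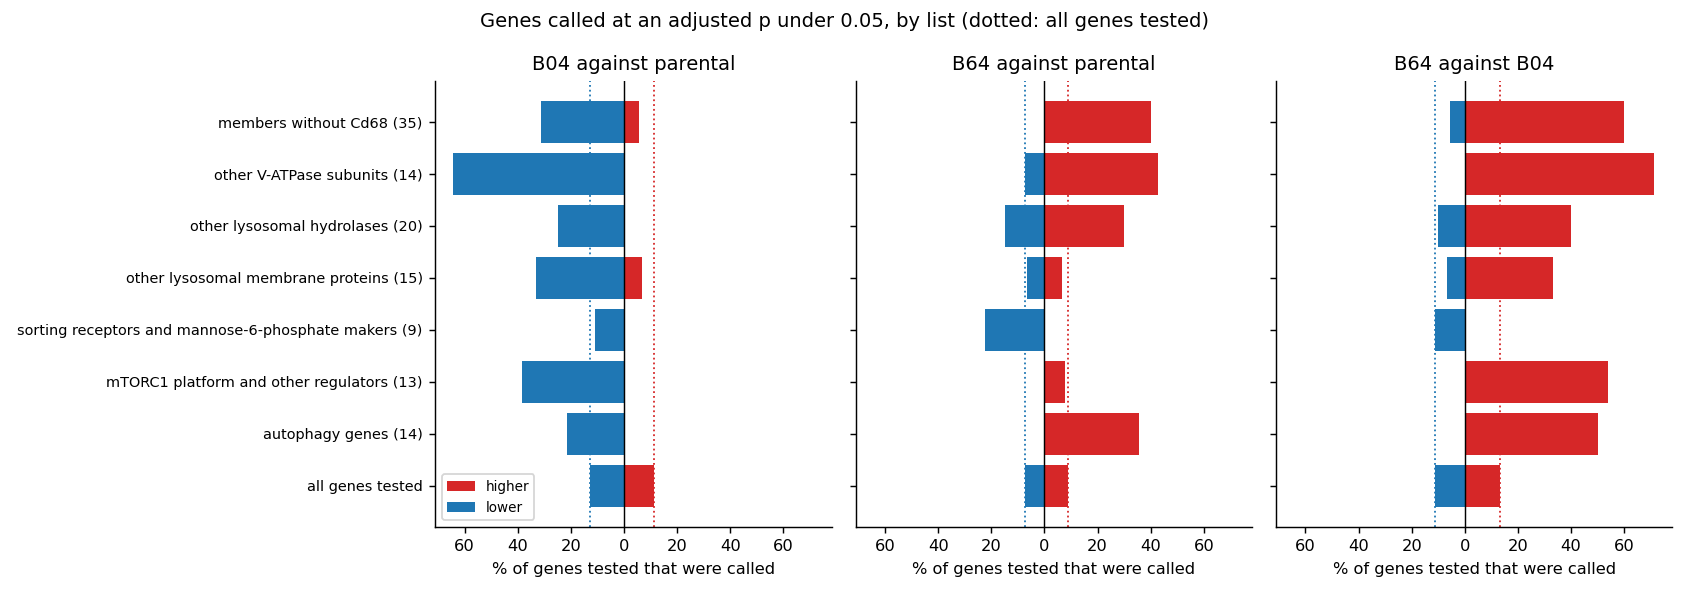
Share of the genes tested in each list (number in parentheses) that were called higher (red, to the right) or lower (blue, to the left) at an adjusted p under 0.05 in DESeq2, in the 3 comparisons; dotted lines give the shares over all genes tested. In B64 against the parental line 40% of the 35 lysosome genes other than Cd68 were higher and none lower, and in B04 the V-ATPase list reaches furthest to the left.

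Because Cd68 is used as a macrophage marker, 17 other macrophage genes were measured. Fcgr1, Tyrobp and Fcer1g were at 0 in all 6 libraries, and Ptprc, the pan-leukocyte gene, had at most 1 count. Cd14 was the exception, at 12.6 and 14.8 TPM in the parental line, 21.9 and 23.0 in B04, and 19.9 and 23.4 in B64, a level above Cd68 in the parental line and B04. Cd14 rose in both clones. The other 16 summed to 0.38 and 0.73 TPM in the parental line, 0.46 and 1.05 in B04, and 1.21 and 1.04 in B64, and 5 to 13 of the 17 were at 0 in each library. Osteoclast-type markers summed to 0.04 to 0.31 TPM per library, pan-leukocyte and lymphocyte markers to 0 to 0.56 TPM and endothelial markers to at most 0.1 TPM. The mean of Cd68 was 10.4 TPM in the parental line and 37.8 TPM in B64, so its difference exceeded the summed level of these 16 markers in any library.

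**Figure D5:**
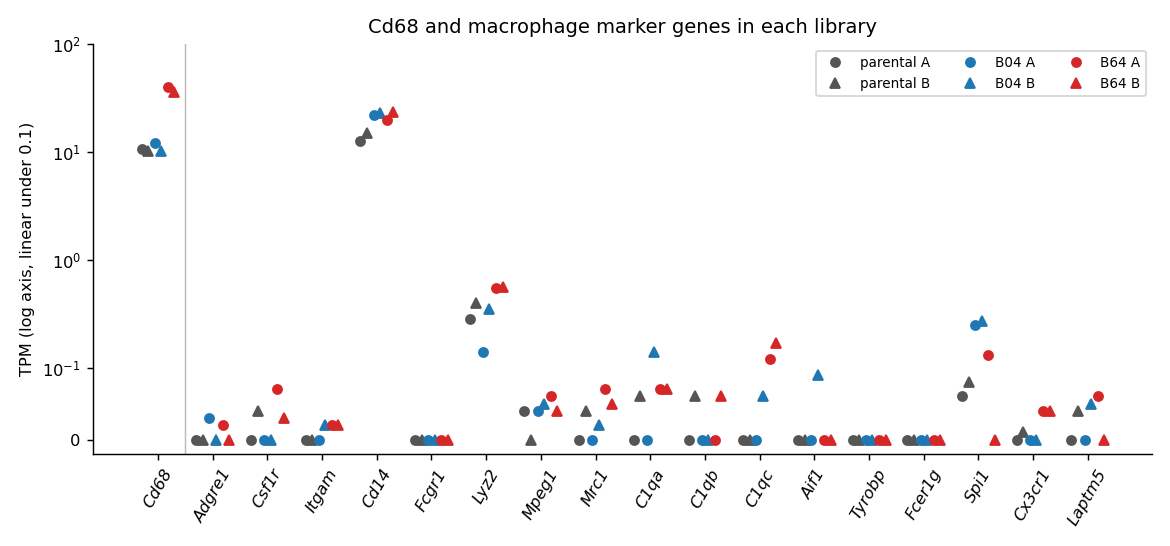
TPM (vertical axis, logarithmic above 0.1 and linear below) of Cd68, left of the grey line, and of 17 macrophage markers in each library; colour gives the line and shape the replicate. Cd68 reaches 39.6 and 36.1 TPM in B64, Cd14 lies between 12.6 and 23.4 TPM in all libraries, and the other markers lie below 1 TPM.

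On chromosome 11, 16 protein-coding genes start within 100 kb of Cd68, of which 13 were tested. Eif4a1, a translation initiation helicase 782 bases away on the same strand, had 18512 and 19250 normalised counts in the parental line, 16745 and 16479 in B04, and 17239 and 17910 in B64. Its log2 fold change was −0.10 (SE 0.05, adjusted p = 0.166 by DESeq2) in B64 and −0.18 (SE 0.05) in B04. Only Tnfsf12, a TNF family cytokine whose annotation overlaps that of a read-through gene, rose in B64 (0.51, SE 0.17), and it rose in B04 as well (0.65, SE 0.17). This 1 of 13 (7.69%) in B64 was near the 8.87% of all genes. In B04, 1 rose (7.69%) and 3 fell (23.1%), against 11.2% and 12.9% of all genes. Besides Eif4a1, the falls were Fxr2 (−0.36, SE 0.07) and Senp3 (−0.24, SE 0.08). Both were higher in B64 than in B04 (0.42, SE 0.07, and 0.25, SE 0.08), 16.7% of neighbours tested against 13.1% of all genes. The median over the 13 genes was 0.02 in B64. The larger values of Slc35g3 (2.55, SE 1.54) and Tnfsf13 (1.90, SE 0.81) in B64 rested on at most 25 normalised counts per library there and did not pass.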

How the data were processed

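Per the labels and the study's methods, the authors mapped paired reads of 150 bases to mm10 using STAR and ran RSEM for quantification, and the annotation release is not given in the sources used here. The deposited tables hold, per library, the expected count of each gene, which RSEM estimates and which was rounded to whole numbers here, and TPM, a level per effective length from the same RSEM run. The authors also deposited FPKM values from RSEM, which were not used here. Symbols and coordinates are from GENCODE M21 (99.7% of identifiers matched). The main test was DESeq2 (version 1.42.0, R 4.3.3), the tool of the study's methods: 1 fit of all 6 libraries with the group as the only term, a Wald test with independent filtering, and calls at a Benjamini-Hochberg adjusted p under 0.05 over all genes tested. Normalised counts are expected counts divided by DESeq2's size factors. The alternatives included edgeR (version 4.0.16) and limma (version 3.58.1) on log2(TPM + 1) and log2(TPM + 0.1). Counts of the V-ATPase and pathway lists under the alternatives, and the values within 1 fragment-length class, were added after seeing the data. DESeq2, with and without the replicate block, edgeR and limma on log2(TPM + 1) were tried on simulated counts with known changes. This was scored for B64 against the parental line only, and the other alternatives were not tried in this way. The members and lists were chosen with earlier results of these data known. Values in every library are given for Cd68, Tfeb, Tfe3, Ctsk and the called members without overlap among the 6 largest changes of each comparison, and for a few members named beside these (Lamp1, Lamp2 and Psap), chosen after their values were seen. Of each pathway list the called gene with the smallest adjusted p in each comparison is named, except for a gene that is not reported here, and further ones were chosen after their values were seen. Replicates A and B were not copies of 1 library (chi-square per degree of freedom of 5.33 to 7.17).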

Additional observations from a re-analysis of the deposited data

Results flagged for a closer look

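The level of 24 of 36 lysosome genes differed between the clones, by DESeq2's direct test of B64 against B04 (adjusted p under 0.05). Without Cd68 it was 23 of 35, against 24.3% of all genes tested. Of the 24, 22 were higher in B64 and 2 were lower, against 13.1% and 11.1% of all genes tested. Among surface and membrane glycoproteins the log2 differences were 1.94 for Cd68, 0.65 for Gpnmb, 0.63 for Cd63, 0.45 for Lamp2, 0.35 for Mcoln1 and 0.15 for Lamp1. Among cathepsins they were 0.69 for Ctsl, 0.46 for Ctsb, 0.43 for Ctsa, 0.33 for Ctsz and 0.29 for Ctsd. Among glycan hydrolases they were 0.97 for Neu1, 0.66 for Gla, 0.63 for Hexa, 0.59 for Gaa and 0.36 for Man2b1. Among lipid hydrolases and carriers they were 0.60 for Psap, 0.46 for Asah1 and 0.45 for Npc2, and 0.84 for Grn, which was counted with them. For the pump they were 0.60 for Atp6v0d1 and 0.56 for Atp6v1a. Lower in B64 than in B04 were Tfeb (−0.72) and Ids (−0.31). The call was lost without B04 replicate A or B64 replicate A for Mcoln1, without B04 replicate B or B64 replicate A for Man2b1, without B04 replicate B or B64 replicate B for Tfeb, without B04 replicate B or either B64 library for Lamp1, and without any 1 library of the clones for Ids (adjusted p of 0.051 to 0.299 over these). Against the parental line, 11 of the 22 passed in B64 and not in B04, 6 passed in B04 and not in B64, 4 (Gaa, Hexa, Psap and Atp6v1a) passed in both and in opposite directions, and Mcoln1 passed in neither. Not passing does not show that a gene did not differ: by edgeR, Gla passed in B64 (adjusted p = 0.0142) and Neu1 in B04 (adjusted p = 0.0477). The causes of these differences were not tested.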

How the results depend on the processing

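Of the 50 calls of lysosome genes other than Cd68 over the 3 comparisons, 33 held under all 16 alternatives, 17 were lost under at least 1 and 0 changed sign. The cause of each loss was not tested. The count of called lysosome genes in B64 against the parental line, 15, was 8 with the fragment-length class as a term and 9 to 13 when single libraries were left out. The Cd68 difference between B04 and the parental line, −0.00, was 0.00 with edgeR, 0.01 with effective lengths as an offset, 0.07 and 0.08 with limma on log2(TPM + 1) and log2(TPM + 0.1), 0.06 with the fragment-length term, and −0.08 to 0.07 when single libraries were left out. None of these passed the threshold. The median over lysosome genes in B04, −0.08, became 0.01 in both limma fits, in which the median of all genes was itself 0.06 and 0.07. Cd68 in B64 against the parental line stayed between 1.77 and 2.08. The pathway genes outside the list called in B64 numbered 26, and 5 with the fragment-length term, 17 with the effective-length offset, 15 and 14 with limma and 9 to 17 without single libraries. With limma on TPM, 16 of them were called in B04 against 29. Between the clones 41 were called, 27 with the fragment-length term and 26 to 38 without single libraries. With the replicate letter as a block, 12, 13 and 24 lysosome genes were called in B04, in B64 and between the clones. The letters did not pair the libraries (correlations of deviations of 0.16, 0.16 and −0.05). With 2 libraries per group, calls near the threshold rest on single libraries, and genes under 3 counts could not be compared.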
